A study of Danio rerio with 16 samples.

Results

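The genes described here move proteins and membrane between the compartments of a cell. They were taken by name from the zebrafish brain arrays of the series, as every probe set (the group of short probes that reads 1 transcript) with a single gene symbol that begins like a Rab or Arf GTPase, a Sar1 or Sec gene, a COPI coat subunit, a VPS gene, a sorting nexin, a clathrin chain or adaptor, a VAMP, TMED or TRAPP gene, a GOLGA golgin or a dynamin. This choice of genes by name used no measured value, although it was made with earlier results of these data known. The rule found 89 genes, read by 96 probe sets, among 4922 genes with a single symbol. For the 6 genes with several, the probe set was chosen by a measured value, as the one of highest mean. No Arf, Sar1 or clathrin chain gene was among the 89.

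Adult fish of both sexes, 4 to 6 months old, from 4 strains had been observed in a behavioral assay, and the whole brains of several fish of the same sex were then pooled. Each strain gave 2 pools of females and 2 of males, with 1 array per pool and 16 arrays in all. The labels call the strains TM1 and SH domesticated, since they had long been bred in captivity, and Nadia and Gaighatta wild, since they descend from fish caught more recently in India, Nadia several generations before the study and Gaighatta just before it. All were raised in the same facility with no treatment that differed between strains, and TM1 carries a transgene for GFP, the green fluorescent protein, driven by a β-actin promoter. Each rearing history was therefore represented by 2 strains, and each strain by a single captive population.

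The strain labels of the arrays are in doubt. GFP (AFFX-Dr-M62653-1_at) was at 8.58 to 10.46 on the log2 scale in the 4 arrays labelled Gaighatta and at most 3.36 in all others, those labelled TM1 included. Over 1645 probe sets, the values of arrays labelled TM1 stand under Gaighatta in a table published with the study and the reverse, those labelled SH stand under Nadia and the reverse, and the sexes are as labelled. Strains are named below as the arrays are labelled, and every direction by rearing history would be reversed under the names in that table.

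Most traffic between compartments follows the same steps. A coat bends the membrane and gathers cargo into a vesicle: COPII on leaving the endoplasmic reticulum, COPI on the way back from the Golgi, and clathrin with its adaptor complexes at the plasma membrane, the trans-Golgi network and endosomes. Rab GTPases and tethering complexes such as TRAPP and HOPS then bring the vesicle to its target, where SNARE proteins such as the VAMPs fuse the membranes. Sorting nexins and many VPS proteins, first found in yeast, return cargo from endosomes or send it on to the lysosome. In neurons the same machinery also recycles synaptic vesicles and carries receptors to and from the cell surface.

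Strain differences were found among coat and adaptor subunits, Rabs, tethers, SNAREs and sorting genes, and their share was near that of genes in general. The authors removed probe sets with signs of sequence differences between strains, and that step was not applied here. In each value below, a difference in sequence under the probes and a difference in RNA level cannot be told apart. Of the 89 genes, 28 (31.5%) had a limma adjusted p under 0.05 in at least 1 of the 6 strain pairs, against 32.9% of all genes. The largest difference between strain means had a median of 0.26 over the 89 genes and 0.30 over all genes, on the log2 scale used throughout. It ran from 0.33 to 0.94 (median 0.54) in the 28 genes that passed and from 0.06 to 0.47 in the 61 that did not. In the pair with that difference, picked as the largest of 6, the pools did not overlap in 27 of the 28 genes. Nor did they overlap in 18 of the 61. Passing the test and picking the largest pair both favour such separation. No share over all genes is given here, so whether these counts are unusual was not tested. With the probe set used for each gene, none of the 89 genes passed with a difference of 2-fold or more, as 4.51% of all genes did. A dimmer probe set of copb2, not used, passed with a difference of 1.29 between SH and Gaighatta.

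**Figure D1:**
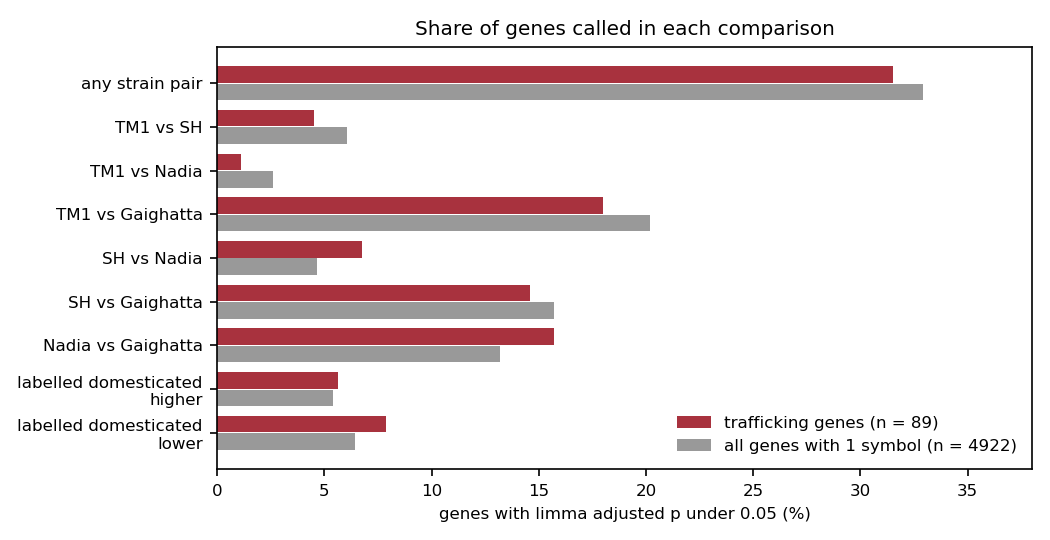
Share of genes, in percent, with a limma adjusted p under 0.05 in each comparison, for the 89 trafficking genes and for all 4922 genes with 1 symbol. Among strains the shares are 31.5% and 32.9%, and the bars of both sets are of similar length in most comparisons.

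Most of the calls involved the pools labelled Gaighatta. Between those labelled TM1 and Gaighatta, 16 of the 89 genes differed (20.2% of all genes), 6 higher in the former and 10 in the latter. SH and Gaighatta differed in 13 (15.7% of all genes), 3 and 10 in the same order, and Nadia and Gaighatta in 14 (13.2% of all genes), 2 and 12. The other pairs had fewer, with 6 between SH and Nadia (4.63% of all genes), 4 between TM1 and SH (6.03%) and 1, snx12, between TM1 and Nadia (2.58%). Of the 43 calls in pairs with Gaighatta, 32 (74.4%) were higher there, against 54.6% of such calls over all genes, a difference that was not tested. In no other pair were 18 of the 28 genes called, and 69.6% of all genes that differed among strains were likewise called in pairs with Gaighatta alone. Over all genes, 11.9%, 8% and 6.91% were called higher in Gaighatta than in TM1, SH and Nadia. The mean of the strain labelled Gaighatta was the highest of the 4 in 15 of the 28 genes (53.6%), against 44.2% of all genes that differed among strains.

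**Figure D2:**
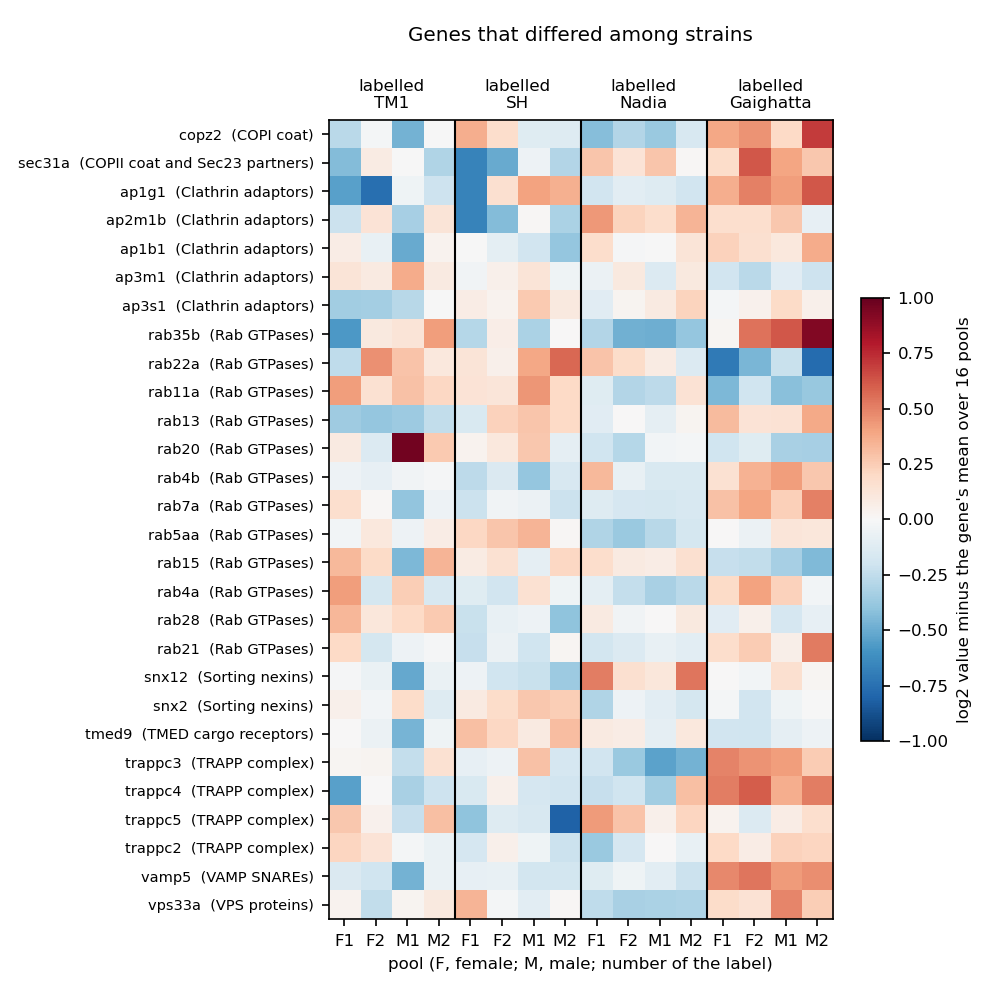
Log2 value of each of the 28 genes that differed among strains in each of the 16 pools, minus the mean of that gene over the pools (colour, from -1 to 1). Red marks values above the gene's mean, and F1, F2, M1 and M2 are the female and male pools by the number in their label. The right-hand block, labelled Gaighatta, has the highest mean in 15 of the 28 rows, and rab20 stands out in a single pool, the first male pool labelled TM1.

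Some pools and marker genes moved with the strains. Pools correlated at 0.967 to 0.988 within a strain and 0.936 to 0.980 between strains over all probe sets. The first male pool labelled TM1 had the lowest mean over the 89 genes, 6.58 against 6.66 to 6.81 in the other pools, and the lowest means of the markers of neurons (6 genes, 9.92 against 10.18 to 10.50), radial glia (10 genes, 8.28 against 8.52 to 8.87), myelin (2 genes, 7.81 against 8.07 to 8.34) and meninges (9 genes, 5.72 against 5.75 to 6.64). It was also lowest over all genes, with a mean of 6.34 against 6.39 to 6.44 in the other pools, and had the lowest array median, 6.08 against 6.12 to 6.20. Both male pools labelled TM1 had high microglial markers (8 genes), at 7.02 and 6.82 against 5.59 to 6.20. The mean of the neuron markers was 10.38 to 10.50 in pools labelled Gaighatta and at most 10.37 in all others. The strain means of elavl3, gad1b, snap25a, syt1a and tubb5 were highest in Gaighatta, but gap43 was lowest there, at 9.78. For tubb5 it was mainly TM1 that was low, at 8.66, with the other strains at 9.18 to 9.28. Of the 6 genes, 3 differed among strains. So did 7 of the 9 genes of meninges, whose mean was 5.72 to 6.26 in TM1 and Gaighatta and 6.10 to 6.64 in SH and Nadia. Of the called ones, col1a1a, col1a2, col5a2a and postnb had their lower strain means in TM1 and Gaighatta. The others did not: sparc was low in TM1 alone (7.79), thbs3a high in SH alone (5.38) and fn1b highest in Gaighatta (4.86). Strain differences were also called in 6 of 10 genes of radial glia, 3 of 8 of microglia and 3 of 4 of the pituitary. The mean of the pituitary genes was 3.51 to 4.75 in TM1 and Gaighatta and 4.32 to 9.18 in SH and Nadia. In the other lists 1 of 2 genes of myelin differed, 1 of 5 of red blood cells, 4 of 10 of eye and pineal and 3 of 17 of muscle. Of all genes 32.9% differed among strains, and no list was tested against that share. In a bulk brain, fewer cells of a type and less RNA per cell cannot be told apart, and the part of these shifts in the results was not tested. Without both male pools labelled TM1, a comparison added after the data were seen, 9 genes differed between TM1 and Gaighatta and 2 between TM1 and SH. No share over all genes without these pools is given here.

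**Figure D3:**
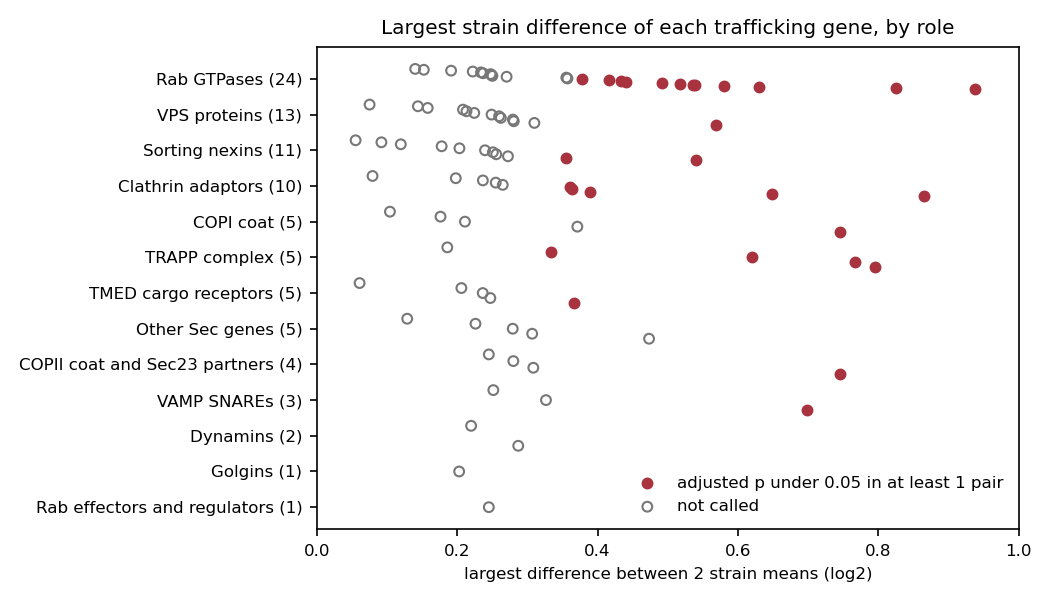
Largest difference between 2 strain means (log2) for each of the 89 genes, by role, with the number of genes per role in parentheses. Filled points had an adjusted p under 0.05 in at least 1 strain pair: 12 of 24 Rab GTPases, 5 of 10 clathrin adaptors and 4 of 5 TRAPP subunits and 1 of 13 VPS genes, against 32.9% of all genes. Differences between roles were not tested.

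At the exit from the endoplasmic reticulum, 1 of 4 COPII genes differed, against 32.9% of all genes. sec31a, which encodes a subunit of the outer COPII cage, was low in the pools labelled SH. Its values, here and below in the order female 1, female 2, male 1 and male 2, were 4.27, 4.43, 4.88 and 4.65 in SH, 4.50, 5.02, 4.93 and 4.64 in TM1, 5.21, 5.07, 5.22 and 4.95 in Nadia, and 5.12, 5.55, 5.33 and 5.21 in Gaighatta. The ranges of SH and Gaighatta did not overlap, and their means differed by 0.75 (standard error 0.144, adjusted p = 0.00193). Pools labelled TM1 were also below those labelled Gaighatta, by 0.53 (adjusted p = 0.0158), and SH was below Nadia by 0.56 (adjusted p = 0.0306). The cargo-binding subunit sec24a had the highest mean of the role, with 6.65 to 7.26 over the 16 pools, and did not pass in any pair (lowest adjusted p = 0.207). sec23b and sec23ip did not pass either, with largest differences of 0.31 and 0.28.

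The Sec61 channel and the Sec22 SNAREs serve protein entry into the endoplasmic reticulum and transport between it and the Golgi. Their 5 genes had no call among strains, against 32.9% of all genes. sec61a1a, the pore subunit, came nearest, with 0.47 between SH and Nadia (adjusted p = 0.0527). Its values were 8.32, 7.97, 8.41 and 8.15 in SH and 7.95, 7.71, 7.58 and 7.72 in Nadia, with no overlap. sec61g, a small subunit of the same channel, had strain means within 0.13 of each other (lowest adjusted p = 0.426).

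Of 5 COPI genes, only copz2, which encodes a zeta subunit of the coat, differed, against 32.9% of all genes. It was 6.68, 6.74, 6.49 and 6.99 in pools labelled Gaighatta, 5.86, 6.00, 5.92 and 6.13 in Nadia, 6.02, 6.27, 5.82 and 6.28 in TM1, and 6.65, 6.46, 6.17 and 6.16 in SH. Gaighatta lay above every pool of TM1 and Nadia and overlapped with SH, and it exceeded Nadia by 0.75 (standard error 0.137, adjusted p = 0.00154) and TM1 by 0.62 (adjusted p = 0.00441). The other subunits copa, copb2, cope and copg2 did not pass, although the dimmer probe sets of copb2, not used here, did so in opposite directions. cope had the highest mean of the role, and its largest difference was 0.10, between SH and Nadia (adjusted p = 0.658).

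The TMED proteins load cargo into COPI and COPII vesicles, and 1 of 5 differed, against 32.9% of all genes. tmed9 was highest in pools labelled SH, at 8.68, 8.58, 8.46 and 8.68, against 8.38, 8.32, 7.91 and 8.33 in TM1 and 8.18, 8.18, 8.28 and 8.32 in Gaighatta. SH did not overlap with either, and it was above TM1 by 0.37 (adjusted p = 0.042) and above Gaighatta by 0.36 (adjusted p = 0.0241). The call against Gaighatta was lost on leaving out SH female 1 or male 2 or Gaighatta female 1 or female 2, and that against TM1 on leaving out any of 11 of the 16 pools (all but TM1 female 1, SH male 1, both male pools of Nadia and Gaighatta male 2). tmed10, the highest by mean, ran from 8.28 to 8.96 over TM1, SH and Nadia and from 8.80 to 8.97 in Gaighatta, with a lowest adjusted p of 0.281.

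The TRAPP complex, which tethers vesicles at the Golgi and activates Rab1 in yeast and mammals, had 4 of its 5 measured subunits called, against 32.9% of all genes. trappc3, a core subunit, was 6.38, 6.33, 6.30 and 6.14 in pools labelled Gaighatta, 5.90, 5.91, 5.64 and 6.04 in TM1, 5.80, 5.83, 6.17 and 5.71 in SH, and 5.69, 5.51, 5.35 and 5.41 in Nadia. All 4 Gaighatta pools were above all those of TM1 and Nadia and overlapped with 1 SH pool. Against Nadia the difference was 0.80 (standard error 0.115, adjusted p = 0.000181), and against TM1 and SH it was 0.41 in each case (adjusted p = 0.0179 and 0.0221).

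trappc4, another core subunit, followed a similar pattern. It was 6.92, 7.01, 6.77 and 6.92 in pools labelled Gaighatta, 5.86, 6.41, 6.08 and 6.19 in TM1, 6.25, 6.45, 6.23 and 6.22 in SH, and 6.18, 6.20, 6.06 and 6.71 in Nadia. Every Gaighatta pool was above all other pools, by 0.77 on average against TM1 (standard error 0.135, adjusted p = 0.000917) and by 0.62 against SH and Nadia (adjusted p = 0.00507 and 0.00573). trappc5 instead set SH apart from Nadia. Its values of 7.37, 7.64, 7.61 and 6.96 in SH lay below the 8.20, 8.05, 7.82 and 7.98 of Nadia, by 0.62 (standard error 0.149, adjusted p = 0.0207), and the call was lost without any 1 of 4 pools, which were female 1 or male 2 of SH and female 1 or female 2 of Nadia. trappc2 was lower in Nadia than in Gaighatta by 0.33 (adjusted p = 0.0332), a call that 5 single pools decided, and trappc13 did not pass in any pair.

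Rab GTPases were the largest role, with 24 genes, of which 12 differed, against 32.9% of all genes, a difference that was not tested. rab35b, a relative of a mammalian Rab of endocytic recycling, had the largest difference of the 89 genes. It was 5.22, 5.03, 5.02 and 5.13 in pools labelled Nadia, 5.53, 6.05, 6.13 and 6.44 in Gaighatta, 4.94, 5.61, 5.64 and 5.93 in TM1, and 5.23, 5.58, 5.20 and 5.52 in SH. Gaighatta was above Nadia without overlap, by 0.94 (standard error 0.193, adjusted p = 0.00376), and above SH by 0.66 (adjusted p = 0.027), while TM1 spread from 4.94 to 5.93. Its paralog rab35a did not pass in any pair (lowest adjusted p = 0.233).

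rab22a, a Rab of early endosomes, moved the other way. It was 5.57, 5.82, 6.05 and 5.50 in pools labelled Gaighatta, 6.02, 6.73, 6.56 and 6.38 in TM1, 6.41, 6.33, 6.66 and 6.85 in SH, and 6.56, 6.46, 6.36 and 6.14 in Nadia. A single pool of Gaighatta, the first male one, reached the lowest of TM1. The strain was below SH by 0.83 (standard error 0.162, adjusted p = 0.00217), below TM1 by 0.69 (adjusted p = 0.00713) and below Nadia by 0.64 (adjusted p = 0.0137).

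rab11a, which marks recycling endosomes, was likewise low in Gaighatta, at 7.05, 7.30, 7.07 and 7.12, against 7.91, 7.65, 7.79 and 7.70 in TM1, 7.63, 7.61, 7.94 and 7.69 in SH, and 7.37, 7.20, 7.23 and 7.64 in Nadia. Neither TM1 nor SH overlapped with it, and they were higher by 0.63 (standard error 0.110, adjusted p = 0.000832) and 0.59 (adjusted p = 0.00157). Nadia lay between, and its ranges overlapped those of Gaighatta and SH.

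rab7a, the Rab of late endosomes and lysosomes, was 9.09, 9.18, 9.03 and 9.29 in pools labelled Gaighatta and 8.40 to 8.96 in the other 12. It was higher there than in Nadia by 0.52, SH by 0.49 and TM1 by 0.42 (adjusted p = 0.00375, 0.00458 and 0.0105). rab13, which serves cell junctions in mammals, was lowest in pools labelled TM1, at 4.53, 4.50, 4.52 and 4.65, against 5.20, 5.02, 5.03 and 5.26 in Gaighatta and 4.73, 5.12, 5.16 and 5.09 in SH. TM1 lay below both without overlap, by 0.58 (standard error 0.099, adjusted p = 0.000688) and 0.47 (adjusted p = 0.00966).

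Rab5 directs early endosomes, and its 3 measured genes did not behave alike in the tests. rab5aa was 9.52, 9.60, 9.66 and 9.33 in pools labelled SH and 9.02, 8.95, 9.05 and 9.14 in Nadia. SH lay above Nadia without overlap, by 0.49 (standard error 0.088, adjusted p = 0.00298), and Nadia was also below Gaighatta by 0.33 (adjusted p = 0.0192). rab5ab, the Rab with the highest mean, had its largest difference, 0.25, between TM1 and Nadia (adjusted p = 0.371), and rab5c one of 0.15 (adjusted p = 0.319). The differences between these genes were not tested.

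The 2 Rab4 genes, of fast endocytic recycling, were both higher in Gaighatta in the pairs that passed. rab4b was 3.18, 3.38, 3.44 and 3.30 there and 2.77, 2.89, 2.64 and 2.87 in SH, apart by 0.54 (standard error 0.105, adjusted p = 0.00217), near the low end of the array's values. rab4a exceeded Nadia by 0.43 (adjusted p = 0.0387), and 6 of the 16 pools, left out singly, ended its call. The other called Rabs were rab20, rab15, rab28 and rab21, with largest differences of 0.54, 0.44, 0.42 and 0.38. Of these, rab20 had overlapping ranges in its largest pair, TM1 and Gaighatta. The first male pool labelled TM1 was at 6.31 and all other pools were at 5.01 to 5.61. That pool also held the highest microglial markers, at 7.02, and their part in the value was not tested. rab3ip, which encodes an exchange factor for Rab8 and is no Rab itself, did not pass (lowest adjusted p = 0.128).

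**Figure D4:**
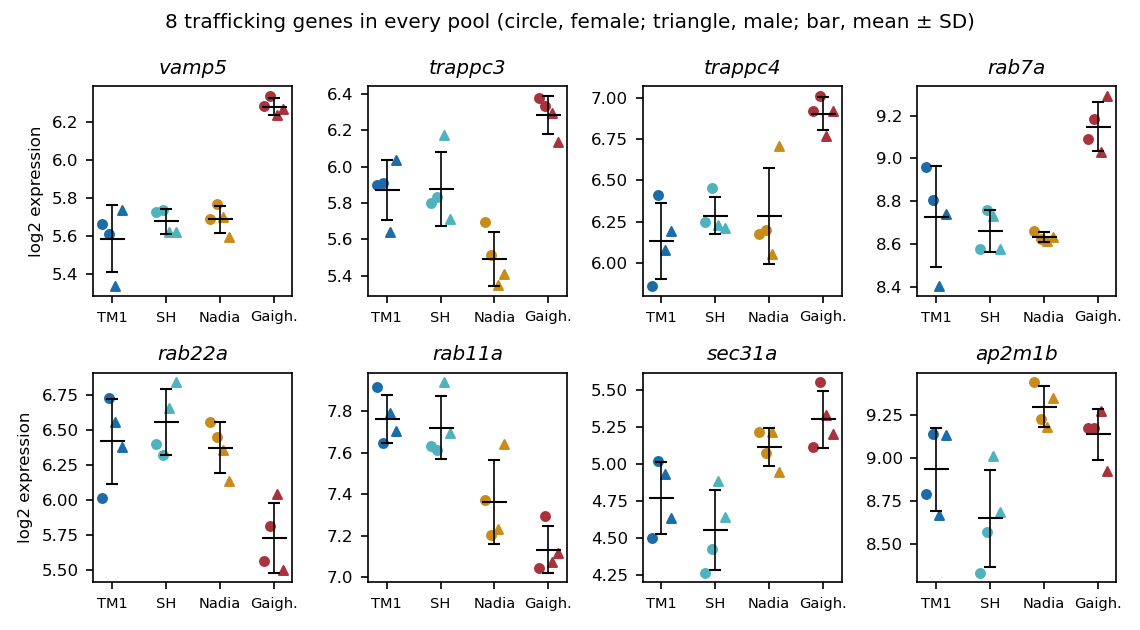
Log2 expression of 8 genes in every pool by labelled strain (circles, female pools; triangles, male pools; bars, mean ± SD, n = 4 pools; Gaigh., Gaighatta). vamp5, trappc4 and rab7a are above all other pools in the 4 labelled Gaighatta and rab22a is low there. sec31a, ap2m1b and rab11a separate most pools labelled TM1 and SH from most of those labelled Nadia and Gaighatta.

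Of 10 genes of the clathrin adaptor family, which link the coat or its relatives to cargo, 5 differed. Of all genes 32.9% did, and the difference was not tested. ap1g1, the gamma subunit of the AP-1 complex of the trans-Golgi network and endosomes, was 7.70, 7.49, 8.21 and 8.04 in pools labelled TM1, 7.58, 8.41, 8.65 and 8.60 in SH, 8.06, 8.15, 8.12 and 8.06 in Nadia, and 8.61, 8.75, 8.67 and 8.87 in Gaighatta. Gaighatta was above all pools of TM1 and Nadia, by 0.86 (standard error 0.193, adjusted p = 0.00481) and 0.63 (adjusted p = 0.0379). ap1b1, the beta subunit of the same complex, was lower in SH than in Gaighatta by 0.39 (adjusted p = 0.0365), and leaving out any of 6 single pools (3 each of SH and Gaighatta) ended the call. ap1g2 and ap1s3b of AP-1 did not pass.

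ap2m1b, the mu subunit of AP-2, which gathers cargo at the plasma membrane, was 8.33, 8.57, 9.01 and 8.69 in pools labelled SH, 8.79, 9.14, 8.67 and 9.14 in TM1, 9.44, 9.23, 9.18 and 9.35 in Nadia, and 9.18, 9.18, 9.27 and 8.93 in Gaighatta. SH was below Nadia without overlap, by 0.65 (standard error 0.141, adjusted p = 0.012), and below Gaighatta by 0.49 (adjusted p = 0.0249). Of the AP-3 genes, whose complex sends cargo to lysosome-related organelles, ap3m1 was higher in TM1 than in Gaighatta by 0.36 (adjusted p = 0.00872). ap3s1 was lower in TM1 than in SH by 0.36 (adjusted p = 0.0389), a call lost without any 1 of 8 pools (TM1 female 1, female 2 or male 1, any SH pool or Gaighatta female 2). The dynamins dnm1a and dnm2b, which cut vesicles from the membrane, had low means of 2.78 and 3.87 and no call. The golgin golga5 was at 6.58 to 7.10 and did not pass (lowest adjusted p = 0.0981).

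Among the SNAREs, vamp5, a VAMP known from muscle in mammals, had the lowest adjusted p of the 89 genes. It was 6.29, 6.34, 6.24 and 6.27 in pools labelled Gaighatta, 5.66, 5.61, 5.33 and 5.74 in TM1, 5.73, 5.73, 5.62 and 5.62 in SH, and 5.69, 5.77, 5.70 and 5.59 in Nadia. The Gaighatta pools were above all others, and their mean exceeded those of TM1, SH and Nadia by 0.70 (standard error 0.089, adjusted p = 5.85e-05), 0.61 (adjusted p = 0.000177) and 0.60 (adjusted p = 0.00022). The mean of 17 muscle markers, 3 of which differed among strains, was 6.11 to 8.49 in TM1, 6.22 to 8.68 in SH, 6.37 to 8.72 in Nadia and 4.85 to 8.86 in Gaighatta, and its part in the values of vamp5 was not tested. vamp4 and vamp8 did not pass.

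Of the 24 genes of endosomal sorting, 3 differed, against 32.9% of all genes, a difference that was not tested. Of 11 sorting nexins, snx12 was 7.23, 7.08, 7.06 and 6.92 in pools labelled SH, 7.27, 7.21, 6.77 and 7.22 in TM1, 7.80, 7.44, 7.40 and 7.82 in Nadia, and 7.29, 7.26, 7.44 and 7.31 in Gaighatta. Nadia was above all pools of SH and TM1, by 0.54 (standard error 0.125, adjusted p = 0.0167) and 0.50 (adjusted p = 0.0392). snx2, a partner of the retromer that returns cargo from endosomes, was higher in SH than in Nadia by 0.35 (adjusted p = 0.027), and a loss of SH female 2, male 1 or male 2 or of Nadia female 1 ended the call. snx6, of the same retromer partners and the highest nexin by mean, differed by at most 0.06 (adjusted p = 0.837).

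Of 13 VPS genes, 1 differed, against 32.9% of all genes. vps33a, which acts on SNAREs within the HOPS and CORVET tethers, was 5.51, 5.45, 5.45 and 5.46 in pools labelled Nadia, 5.96, 5.92, 6.26 and 6.02 in Gaighatta, 5.80, 5.53, 5.80 and 5.87 in TM1, and 6.11, 5.75, 5.66 and 5.78 in SH. Nadia was below every other pool, but only the difference from Gaighatta, 0.57 (standard error 0.108, adjusted p = 0.00202), passed. The retromer genes vps26a, vps26b and vps26bl and the GARP or EARP genes vps51, vps52 and vps53 did not pass, nor did vps28 of ESCRT-I (lowest adjusted p = 0.423).

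In 5 of the 89 genes (5.62%) the strain labelled Gaighatta differed from each of the other 3 with no call among those, against 4.63% of all genes. rab7a, trappc3, trappc4 and vamp5 were higher there and rab22a was lower. No gene of the 89 set any other strain apart in this way. Leaving out single pools kept a call in at least 1 pair for 18 of the 28 genes. The other 10 had no call left in some cases: ap1b1, ap3s1, rab15, rab20, rab21, rab4a, snx2, tmed9, trappc2 and trappc5. Of the 54 pair calls of the 28 genes, 28 were kept without any single pool and 26 were lost without some. Lost calls of the 18 genes were those of ap1g1 between Nadia and Gaighatta (without any of the 8 pools of these strains), snx12 between TM1 and Nadia (8 pools) and between SH and Nadia (SH male 2), and sec31a between SH and Nadia (6 pools) and between TM1 and Gaighatta (TM1 female 1 or Gaighatta female 2). So were those of ap2m1b (5 pools), rab35b (5) and trappc3 (5) between SH and Gaighatta, of trappc3 (2), rab4b (4) and rab28 (4) between TM1 and Gaighatta, and of rab5aa (2) between Nadia and Gaighatta. Without the whole strain labelled Gaighatta, 7 genes differed in the pairs that remained, and no share over all genes is given for that setting.

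By labelled rearing history, 5 genes were higher in the 8 pools labelled domesticated (5.62%, against 5.4% of all genes) and 7 were lower (7.87%, against 6.44% of all genes). The higher ones were rab11a, rab22a, rab5aa, snx2 and sec61a1a. rab11a averaged 7.74 ± 0.13 (SD, n = 8 pools) on the labelled domesticated side and 7.25 ± 0.19 on the labelled wild side, a difference of 0.49 (standard error 0.078, adjusted p = 0.000541). The differences of rab22a, sec61a1a, rab5aa and snx2 were 0.43, 0.31, 0.24 and 0.22 (adjusted p from 0.0207 to 0.0425). For rab22a the strain labelled Nadia did not differ from TM1 or SH in the pair tests, and the low pools were those labelled Gaighatta. For rab5aa the means of TM1 and Gaighatta were close (TM1 minus Gaighatta -0.02), with SH highest and Nadia lowest.

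The lower ones were sec31a, ap2m1b, trappc4, snx12, vamp5, ap1b1 and rab4b. sec31a averaged 4.66 ± 0.26 (SD, n = 8 pools) on the labelled domesticated side and 5.21 ± 0.18 on the other and fell by 0.54 (standard error 0.102, adjusted p = 0.00223). ap2m1b was 8.79 ± 0.29 against 9.22 ± 0.15 and fell by 0.43 (adjusted p = 0.0107), and snx12 was 7.10 ± 0.18 against 7.47 ± 0.22 and fell by 0.37 (adjusted p = 0.0119), whereas a second, dimmer probe set of snx12 was higher by 0.15 without passing (adjusted p = 0.303). trappc4 fell by 0.38 and vamp5 by 0.35, both through the pools labelled Gaighatta, as above. ap1b1 and rab4b fell by 0.29 and 0.28.

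In 10 of these 12 genes, all but rab5aa and trappc4, both strain means of a history lay on the same side of both of the other. The ranges of the 8 and 8 pools were disjoint after leaving out 1 pool in 4 genes, sec31a, ap2m1b, rab11a and snx12. Both counts are of genes that had already passed the contrast, which favours such separation. No share over all genes is given here for either count. With strain as a random block, 0 of the 89 genes passed (lowest adjusted p = 0.0977, for rab11a) and 12 had an unadjusted p under 0.05. With the 4 strain means as the samples, 0 passed and 4 had an unadjusted p under 0.05. No share over all genes is given here for these unadjusted counts. The 12 calls thus describe these 16 pools, and strain and history cannot be told apart with 2 strains on each side. Leaving out single pools ended the calls of ap1b1, snx2 and sec61a1a. Of the 6 neuron markers, 2 were lower in the labelled domesticated pools. The mean of the 6 was 9.92 to 10.24 in TM1, 10.23 to 10.37 in SH, 10.23 to 10.37 in Nadia and 10.38 to 10.50 in Gaighatta. Of the other marker lists, 2 of 8 microglial genes were higher on the labelled domesticated side (c1qc by 0.57 and spi1b by 0.45). Of 10 radial glial genes, gfap was higher by 0.35 and 2 were lower, among them cyp19a1b, which fell by 0.93, and of 9 genes of meninges thbs3a was higher by 0.50 and fn1b fell by 0.55. Of all genes, 5.4% were called higher and 6.44% lower on the labelled domesticated side, and no marker list was tested against these shares. The part of these cell types in the 12 calls was not tested.

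Between the sexes, 0 of the 89 genes were higher in males (0.163% of all genes) and 0 were lower (0.0203% of all genes), and 4 had an unadjusted p under 0.05 against 12.1% of all genes. Male minus female differences ran from -0.22 to 0.31. ap1g1 had the largest, 0.31 (adjusted p = 0.325), with 0.52 in TM1, 0.63 in SH, -0.01 in Nadia and 0.09 in Gaighatta. vps28, an ESCRT-I subunit, was at the other end, with -0.22 (adjusted p = 0.437). Its lowest pool, at 7.38, was the first male one labelled TM1. For an effect of sex that depends on strain, 0 of the 89 genes passed in limma's F test (0.0813% of all genes), and 1 had an unadjusted p under 0.05, against 4.69% of all genes.

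Of the 6 genes with several probe sets, 3 gave different answers by probe set. copb2, a beta-prime subunit of COPI, had 3 probe sets, and the brightest, used here, had strain means of 7.26 to 7.47 and no call. The second was higher in pools labelled Gaighatta, 7.42 ± 0.08 (SD, n = 4 pools), than in Nadia, 7.03 ± 0.12, by 0.38 (adjusted p = 0.00902). The dimmest went the other way, with 4.87 ± 0.47 in Gaighatta and 6.16 ± 0.24 in SH, a difference of 1.29 (adjusted p = 0.000517). Probe sets of 1 gene can read different parts of its transcript or different sequence variants, and which of them follows the RNA level was not tested.

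The second probe set of vps9d1, a protein with a VPS9 domain as found in activators of Rab5, was lower in Gaighatta than in SH, 3.36 ± 0.11 against 3.93 ± 0.22 (SD, n = 4 pools), by 0.57 (adjusted p = 0.00153). The one used had strain means of 6.51 to 6.77 and its largest difference was 0.26 (adjusted p = 0.105). For snx12 the second probe set had no call, and its strain means lay within 0.30 (adjusted p = 0.113), while the one used did. The remaining 3, rab36, snx7 and vps52, had no call with either probe set.

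**Figure D5:**
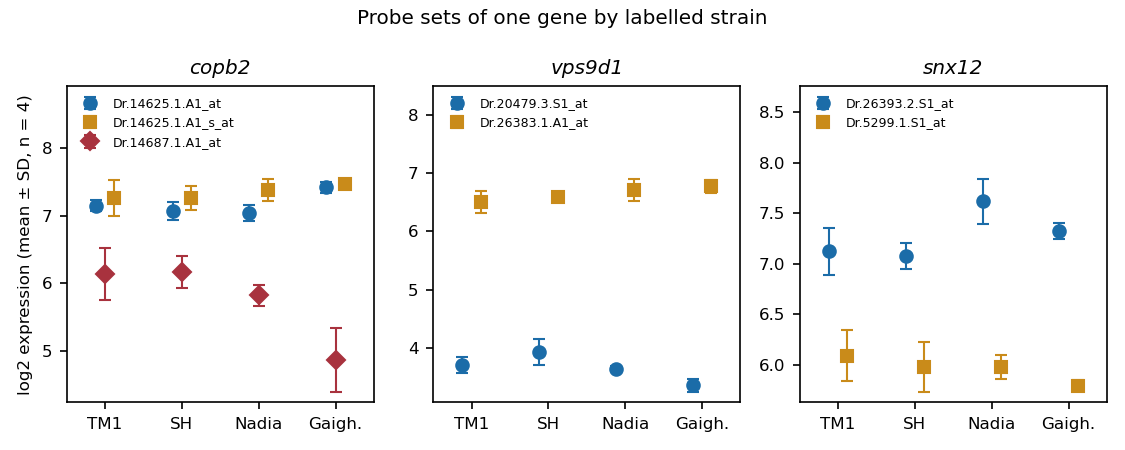
Log2 expression (mean ± SD, n = 4 pools) by labelled strain for each probe set of copb2, vps9d1 and snx12 (Gaigh., Gaighatta). In copb2 and vps9d1 a dimmer probe set falls in Gaighatta where the brighter ones do not.

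Of 39 genes in lists of proteins that work beside these, 15 (38.5%) differed among strains, against 32.9% of all genes. Of 7 ESCRT-III genes of the CHMP family, 2 differed, with chmp3 lower in SH than in Nadia by 0.78 (adjusted p = 0.000207). Of 3 genes of SNARE disassembly and Sec1/Munc18 proteins, which prepare SNAREs for fusion, 2 differed, stxbp3 by 0.68 between TM1 and Gaighatta (adjusted p = 0.000219) and nsfa by 0.41 between TM1 and SH (adjusted p = 0.0331). Of 9 regulators of Rab activity or prenylation, 3 differed, such as rabac1 by 0.62 (adjusted p = 0.00515), and of 3 Arf regulators 2 differed, arfgap2 by 0.67 (adjusted p = 0.0344) and cyth1a by 0.36 (adjusted p = 0.016).

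Clathrin accessory proteins had 4 of 7 called, against 32.9% of all genes. Among them hspa8b, an Hsc70 relative, averaged 9.12 ± 0.24 (SD, n = 4 pools) in TM1 and 7.70 ± 0.17 in Gaighatta, a difference of 1.42 (adjusted p = 1.33e-06). The endophilin gene sh3gl1b was higher in TM1 than in Gaighatta by 0.52 (adjusted p = 0.00493). Of 6 cargo receptors and retrieval genes 1 differed, mcfd2, by 0.42 between Nadia and Gaighatta (adjusted p = 0.00388). The COG tether gene cog8 differed by 0.30 between TM1 and Gaighatta (adjusted p = 0.0266), and exoc7 of the exocyst and the 2 measured SNAREs of the Golgi and reticulum, stx5al and use1, did not pass.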

How the data were processed

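Total brain RNA (10 µg per array) of 16 pools was hybridized to Affymetrix Zebrafish Genome Arrays. The authors deposited log2 values that they had made with RMA in affy (version not given in the sources used here): background correction, quantile normalization and a summary over the probes of each probe set. The authors kept probe sets by detection calls. An interquartile range filter of 0.5 named in the methods is not seen in the values, whose smallest range is 0.0448. The table holds 7958 probe sets, of which 36 controls were left out and 7922 tested. Array medians ran from 6.08 to 6.20 and values from 2.27 to 13.23. Arrays give no read depth, and their number limits the precision. Levels of different probe sets do not compare as amounts of RNA, and the highest mean served to choose probe sets and genes to name. The authors' filter on probes at polymorphic sites was not applied, so a sequence difference under a probe and a difference in RNA level cannot be told apart.

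Gene symbols came from the platform's annotation, and all 89 are current RefSeq symbols. limma 3.58.1 in R 4.3.3 was fitted with a mean per strain, contrasts for the 6 strain pairs and for labelled domesticated minus wild strains, and a second model with sex and its interaction with strain. p-values were adjusted by Benjamini and Hochberg over all probe sets within each contrast, at 0.05. The script was tested on simulated data. A gene differed among strains when at least 1 of 6 pairs passed. By the methods of the study, pools come from separate fish and each holds the fish of a single tank. Pool and tank therefore cannot be told apart. Genes named are the 12 largest strain differences, up to 8 higher and 8 lower by rearing history, up to 5 each for sex and its interaction, the called and the highest gene of each role, the study's SEC31 homolog, and up to 6 with probe sets that disagree. Up to 2 genes were named per list of related genes. rab7a and the other called genes and those that did not pass were added after their values were seen. The genes and lists were chosen with earlier results of these data known, and the patterns of 2 lists were corrected after the files were read.

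The same replicate number does not pair the pools. Alternatives were other filters, centring, a second quantile normalization, another choice of probe set, a stricter threshold, a replicate block, strain as a random block, strain means and leaving out single pools.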

Additional observations from a re-analysis of the deposited data

Results flagged for a closer look

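Among the 32 genes named by rule, each strain's 4 pools were checked for a pool far from the other 3, and 7 of 128 groups of 4 pools had one. Chance alone marks about 1 in 20 such groups.

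The first male pool labelled TM1 held 3 of the 7. There vps28 was at 7.38 with the others at 8.15 to 8.30, tmed9 at 7.91 with the others at 8.32 to 8.38, and snx12 at 6.77 with the others at 7.21 to 7.27. In the first male pool labelled SH, sec24a was at 7.26 with the others at 6.83 to 6.89. In the second female pool labelled SH, trappc4 was at 6.45 with the others at 6.22 to 6.25. Pools labelled Nadia held the remaining 2: tmed9 was at 8.28 in the first male pool with the others at 8.45 to 8.48, and vps33a was at 5.51 in the first female pool with the others at 5.45 to 5.46.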

How the results depend on the processing

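Counts of genes called changed by over 1.5 times under some choices. No share over all genes under the same choice is given for the counts of this section. At an adjusted p under 0.01, 15 genes differed among strains, with 1 between TM1 and SH, 0 between TM1 and Nadia, 8 between TM1 and Gaighatta, 1 between SH and Nadia, 7 between SH and Gaighatta and 7 between Nadia and Gaighatta, and 3 by rearing history. With an interquartile range of at least 0.5, which 6 of the 89 genes and 9.77% of all genes had, these counts were 6, 0, 0, 5, 1, 4, 5 and 3 in the same order. That filter picks genes by their spread over the same pools, which favours calls. Between TM1 and Nadia, 2 genes passed with arrays centred on the median, 3 after a second quantile normalization and 0 with the probe set of highest interquartile range per gene. By rearing history, 4 genes met the range criterion of the methods, for which no share over all genes is given here. With strain as a random block or with the 4 strain means, 0 passed. Without the strain labelled Gaighatta 7 genes differed in the pairs that remained. This count does not compare with the 28 genes over all 6 pairs, since 18 of those were called only in pairs with Gaighatta. Without both male pools labelled TM1, chosen after seeing the data, 2, 0 and 9 genes differed between TM1 and SH, Nadia and Gaighatta.

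Leaving out single pools gave 22 to 32 genes among strains, 2 to 4 between TM1 and SH, 0 to 2 between TM1 and Nadia, 11 to 16 between TM1 and Gaighatta, 2 to 8 between SH and Nadia, 8 to 19 between SH and Gaighatta, 8 to 15 between Nadia and Gaighatta, 9 to 14 by rearing history, 0 to 1 by sex and 0 to 0 for strain by sex. TM1 and SH had 2 without TM1 female 2, SH female 2, SH male 2 or Gaighatta female 2. SH and Nadia had 2 without SH male 2, SH and Gaighatta 8 without Gaighatta female 2, and Nadia and Gaighatta 8 without Nadia female 2 and 9 without Gaighatta male 1. The gene called by sex was vps28, at -0.33 (adjusted p = 0.0429) without TM1 male 2.

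With the probe set of highest interquartile range, the direction turned for copb2 (SH minus Gaighatta 1.29), snx12 (SH minus Nadia 0.00252, labelled domesticated minus wild 0.15) and vps9d1 (TM1 minus Gaighatta 0.35). snx6 turned from 0.06 between TM1 and SH to -0.0408 without TM1 female 2 and -0.00317 without TM1 male 2, against 0.20 without TM1 male 1. The numbers do not pair the pools, since deviations of same-numbered pools correlated at -0.29 to 0.31 over 28 pairs of groups. A replicate block gave 28 genes among strains, 17 between TM1 and Gaighatta and 12 by rearing history, and ended the call of sec61a1a by rearing history (adjusted p = 0.0512). The causes were not tested.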
